A study of Homo sapiens with 3 samples.

Results

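The hypoxia-responsive genes are 10 genes that cells raise when oxygen is short: DDIT4, SLC2A1, PDK1, VEGFA, CA9, BNIP3, ADM, EGLN3, NDRG1 and P4HA1. They were taken as the array probes whose annotated gene symbol is one of these names, and 9 of the 10 had such a probe, 1 each, out of 16225 genes in all. The expression of CA9, a membrane carbonic anhydrase, is not analysed here. Of the 9 measured genes, 8 were above background in all 3 lines and VEGFA was above it in none. Of all 16225 genes, 9695 were above background in all 3 lines. The list was chosen by the intensities of these same arrays, so the differences between lines below are a description and carry no test.

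Total RNA of 3 human embryonic stem (ES) cell lines, ES01, BG03 and H9, was labelled with Cy3 and read on 1 Illumina bead array per line. All 3 lines were kept on a feeder layer of irradiated MEFs, with knockout serum replacement (KSR) and FGF2 in the medium, and the labels name no genotype change or treatment that separates them. The series treats the lines as 3 biological replicates of undifferentiated cells. The oxygen tension and the passage of the cultures are not stated in the sources used here. With 1 array per line, line, culture, hybridisation and scan cannot be told apart, and fewer expressing cells cannot be told apart from less RNA per cell.

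When oxygen is plentiful, prolyl hydroxylases mark the alpha subunits of hypoxia-inducible factor (HIF), and the von Hippel-Lindau protein, VHL, sends them for destruction. When oxygen falls, the alpha subunit is kept, pairs with a beta subunit (ARNT or ARNT2) and binds a short core sequence in its target genes, which serve glucose uptake, restraint of mitochondrial respiration, removal of mitochondria, blood vessel growth and collagen modification. Several targets, DDIT4 among them, also answer to other signals such as nutrient stress, p53 and glucocorticoids. Human ES cells rely heavily on glycolysis in ordinary culture.

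The promoters of the 5 genes that differed at least 2-fold between some pair of lines are shown because the results turn on these genes, and they were searched for the core sequence that HIF binds. Each runs from 250 bases before to 50 bases after the RefSeq gene start (GRCh38.p14), 5′ to 3′ on the gene's strand. Capitals mark ACGTG or GCGTG on either strand, the reverse strand reading CACGT or CACGC; overlapping matches were counted separately, so CACGTG counts as 2. The windows are chr10:72273674-72273973 (plus strand) for DDIT4, chr10:131981874-131982173 (minus strand) for BNIP3, chr10:73096817-73097116 (minus strand) for P4HA1, chr2:172555123-172555422 (plus strand) for PDK1 and chr1:42958819-42959118 (minus strand) for SLC2A1.
DDIT4: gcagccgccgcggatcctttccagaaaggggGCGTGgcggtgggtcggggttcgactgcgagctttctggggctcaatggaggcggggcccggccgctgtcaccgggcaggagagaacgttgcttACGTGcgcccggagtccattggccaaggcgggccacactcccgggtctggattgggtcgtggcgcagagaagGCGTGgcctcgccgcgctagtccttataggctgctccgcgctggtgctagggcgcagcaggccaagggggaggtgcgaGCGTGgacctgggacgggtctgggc
BNIP3: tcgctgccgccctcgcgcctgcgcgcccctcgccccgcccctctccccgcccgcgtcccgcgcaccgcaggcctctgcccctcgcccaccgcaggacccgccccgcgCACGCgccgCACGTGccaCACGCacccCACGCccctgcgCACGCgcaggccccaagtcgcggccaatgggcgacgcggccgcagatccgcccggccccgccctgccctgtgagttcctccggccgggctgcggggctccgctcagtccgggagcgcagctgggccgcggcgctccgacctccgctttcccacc
P4HA1: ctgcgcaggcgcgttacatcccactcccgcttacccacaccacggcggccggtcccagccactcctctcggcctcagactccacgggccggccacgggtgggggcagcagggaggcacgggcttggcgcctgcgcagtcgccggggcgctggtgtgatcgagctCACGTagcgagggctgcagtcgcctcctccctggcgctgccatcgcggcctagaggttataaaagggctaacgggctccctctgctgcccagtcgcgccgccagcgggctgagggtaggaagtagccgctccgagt
PDK1: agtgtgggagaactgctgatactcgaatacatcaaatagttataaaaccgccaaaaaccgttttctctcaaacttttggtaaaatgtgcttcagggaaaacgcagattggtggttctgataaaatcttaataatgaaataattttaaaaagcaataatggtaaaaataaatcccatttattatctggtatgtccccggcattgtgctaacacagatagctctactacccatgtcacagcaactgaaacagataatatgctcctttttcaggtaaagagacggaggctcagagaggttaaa
SLC2A1: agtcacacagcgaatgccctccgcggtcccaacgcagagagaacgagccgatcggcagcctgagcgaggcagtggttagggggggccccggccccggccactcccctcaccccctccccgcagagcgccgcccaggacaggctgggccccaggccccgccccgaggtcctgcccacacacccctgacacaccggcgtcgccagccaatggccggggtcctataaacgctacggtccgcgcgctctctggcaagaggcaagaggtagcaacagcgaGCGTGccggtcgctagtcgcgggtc

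DDIT4 holds 4 matches, BNIP3 6, SLC2A1 and P4HA1 1 each and PDK1 0. Of the 8 listed genes whose promoter was in the RefSeq table, 6 hold at least 1 match and 2 hold 2 or more. These 8 include CA9, with 1 match, and leave out VEGFA and NDRG1. Among all 27305 promoters of this length, 48.4% hold at least 1 match and 23.3% hold 2 or more, so a match in such a window is common. ACGTG alone was in 21.6% of all promoters and GCGTG alone in 36.3%. A match is a stretch of letters and not a shown binding site, and HIF sites farther away lie outside these windows.

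The hypoxia-responsive genes did not move as 1 block between the lines. DDIT4 and BNIP3 were highest in H9 and lowest in ES01, SLC2A1 and NDRG1 were highest in ES01, ADM and EGLN3 were lowest in H9, and PDK1 and P4HA1 were lowest in BG03, as the plot of intensities by line shows. In ES01 relative to H9, DDIT4 was 2.68 lower on the log2 scale while SLC2A1 was 1.54 higher. No scale factor between the arrays can change this gap of 4.22. The widest differences belonged to DDIT4, a brake on growth signalling, and to SLC2A1, a glucose transporter.

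**Figure D1:**
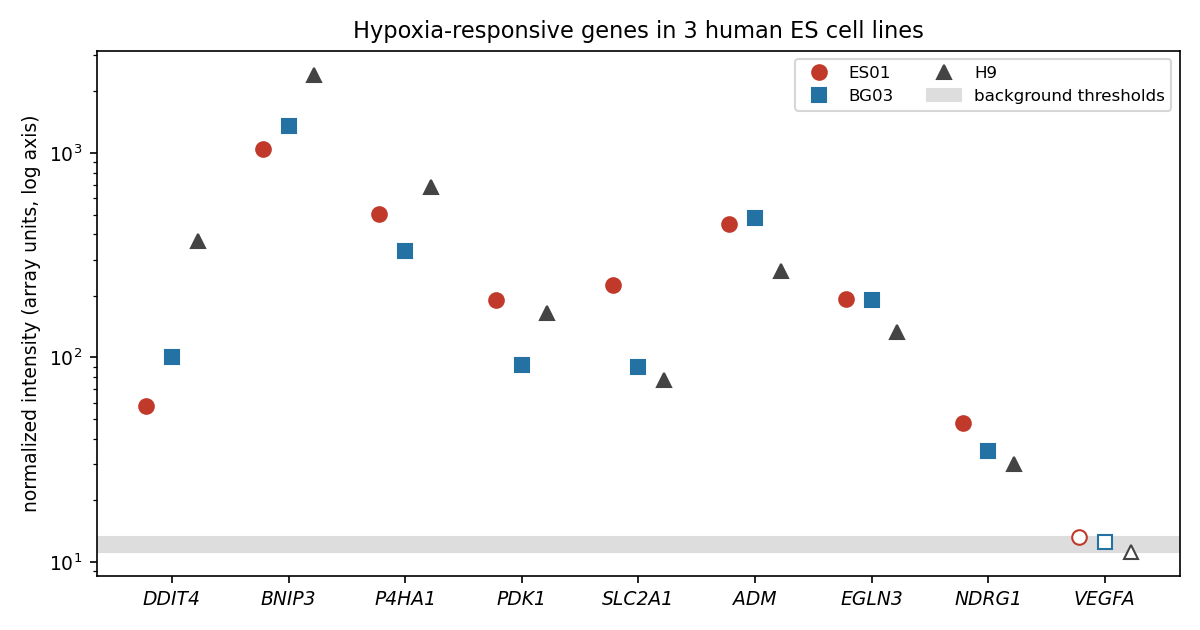
Normalized intensity (log axis, array units) of 9 hypoxia-responsive genes in ES01 (circles), BG03 (squares) and H9 (triangles), 1 array each; the grey band spans the background thresholds of 11.2 to 13.3 units and open symbols at a threshold are values not above it. DDIT4 and BNIP3 step up towards H9, SLC2A1 stands apart in ES01, and VEGFA is open in all 3 lines.

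Values are quantile-normalized intensities, set to the array's background threshold where they lay under it (13.3 units on ES01, 12.6 on BG03 and 11.2 on H9) before log2 was taken. A gene was called different between 2 lines when it differed at least 2-fold. Each log2 SD is taken across the lines (n = 3).

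The restraint of growth and mitochondria was read through DDIT4 and BNIP3. DDIT4 encodes a stress-induced inhibitor of the mTORC1 growth kinase. It measured 57.7 units in ES01, 100.2 in BG03 and 369.5 in H9 (log2 SD 1.38). H9 stood alone at the high end, 6.41-fold over ES01 and 3.69-fold over BG03. A difference from H9 as low as this was found for 0.0636% of all genes tested in ES01 and for 0.154% in BG03. BNIP3 encodes a mitochondrial outer membrane protein that takes part in mitophagy and cell death. It measured 1048 units in ES01, 1348 in BG03 and 2417 in H9 (log2 SD 0.62). BNIP3 thus had the same order of lines as DDIT4 over a narrower range, with H9 2.31-fold over ES01 and 1.79-fold over BG03.

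Fuel use was read through SLC2A1 and PDK1, and both were highest in ES01, PDK1 by a margin that other scaling undid. SLC2A1 encodes GLUT1, which brings glucose into the cell. It measured 225 units in ES01, 90.3 in BG03 and 77.6 in H9 (log2 SD 0.83). ES01 stood apart, 2.90-fold over H9 and 2.49-fold over BG03, whereas BG03 and H9 differed by 0.22 on the log2 scale. PDK1, the pyruvate dehydrogenase kinase that keeps pyruvate from the mitochondrial cycle, measured 190.1 units in ES01, 91.7 in BG03 and 164 in H9 (log2 SD 0.56). For PDK1 the low line was BG03, at 0.482 of the ES01 level, and ES01 and H9 lay close together (difference 0.21 on the log2 scale, and -0.11 when array medians were made equal).

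P4HA1 carries the catalytic site of collagen prolyl 4-hydroxylase, which hydroxylates collagen chains and uses oxygen to do so. It measured 502 units in ES01, 330.0 in BG03 and 685 in H9 (log2 SD 0.53). BG03 was again the low line, at 0.481 of the H9 level. That difference lay just past 2-fold, and with the values as deposited it was -0.96 on the log2 scale.

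The secreted and feedback members differed less. ADM encodes adrenomedullin, a peptide that widens blood vessels. It measured 451 units in ES01, 482 in BG03 and 265 in H9 (log2 SD 0.47), with H9 lowest and the other 2 lines within 0.09 of each other on the log2 scale. EGLN3, a prolyl hydroxylase that is itself raised by HIF and acts back on it, measured 194 units in ES01, 192 in BG03 and 134 in H9 (log2 SD 0.31). EGLN3 had the narrowest spread of the 8 genes and the same low line as ADM. NDRG1, a stress-responsive protein linked to differentiation, was the dimmest of the 8 at 47.9 units in ES01, 34.7 in BG03 and 30.2 in H9 (log2 SD 0.34). VEGFA, the vascular growth factor, read 3.67 units in ES01, -1.17 in BG03 and 4.37 in H9, not well above background in any line. Its 1 probe was not checked for reading the transcript, so these values do not show that VEGFA RNA is absent.

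Error on the array itself was set beside each difference. The bead codes are not tied to genes here, so the bead error was read from the bead types nearest to the same brightness rank on the same array. Its median standard error was 0.04 to 0.17 on the log2 scale over the 8 genes and 3 lines, and at most 0.11 with NDRG1 left out. Of the 24 differences (8 genes in 3 pairs of lines), 4 were within 2 combined standard errors: NDRG1 and SLC2A1 between BG03 and H9, and ADM and EGLN3 between ES01 and BG03. Those neighbouring lines cannot be ordered for these genes. Bead error covers 1 hybridisation only and says nothing of how far a second culture of the same line would lie.

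Counted between ES01 and H9, 3 of the 8 genes differed at least 2-fold (SLC2A1 higher in ES01, DDIT4 and BNIP3 lower), against 5.14% of the 11004 genes that passed background in some line. For all genes, 2.9% were at least 2-fold higher in ES01 and 2.24% lower. Between BG03 and H9, 2 of 8 differed, both lower in BG03 (DDIT4 and P4HA1), against 3.24% of all genes, of which 1.74% were higher and 1.5% lower. Between ES01 and BG03, 2 of 8 differed, both higher in ES01 (SLC2A1 and PDK1), against 3.75% of all genes, 2.27% higher and 1.48% lower. Over any pair, 5 of 8 differed, against 8.29%. Because the list was made with these values known, nothing is read from the excess over all genes. Genes called between ES01 and either of the others split differently when array medians were made equal: 1.52% of all genes were then higher and 5.69% lower in ES01 than in H9, and 1% were higher and 4.52% lower than in BG03.

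The direction of the 8 genes was mixed in every pair. In ES01 against H9, 5 were higher and 3 lower, with a median log2 difference of 0.37 beside 0.01 for all genes. In BG03 against H9, 4 were higher and 4 lower, with a median of -0.32 beside 0.03. In ES01 against BG03, 5 were higher and 3 lower, with a median of 0.24 beside -0.01, and the median turned to -0.09 when array medians were made equal. The medians sit between genes that lie far apart: the members spanned 4.22, 2.74 and 2.12 on the log2 scale in these 3 pairs. The pairs share arrays and are not independent.

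**Figure D2:**
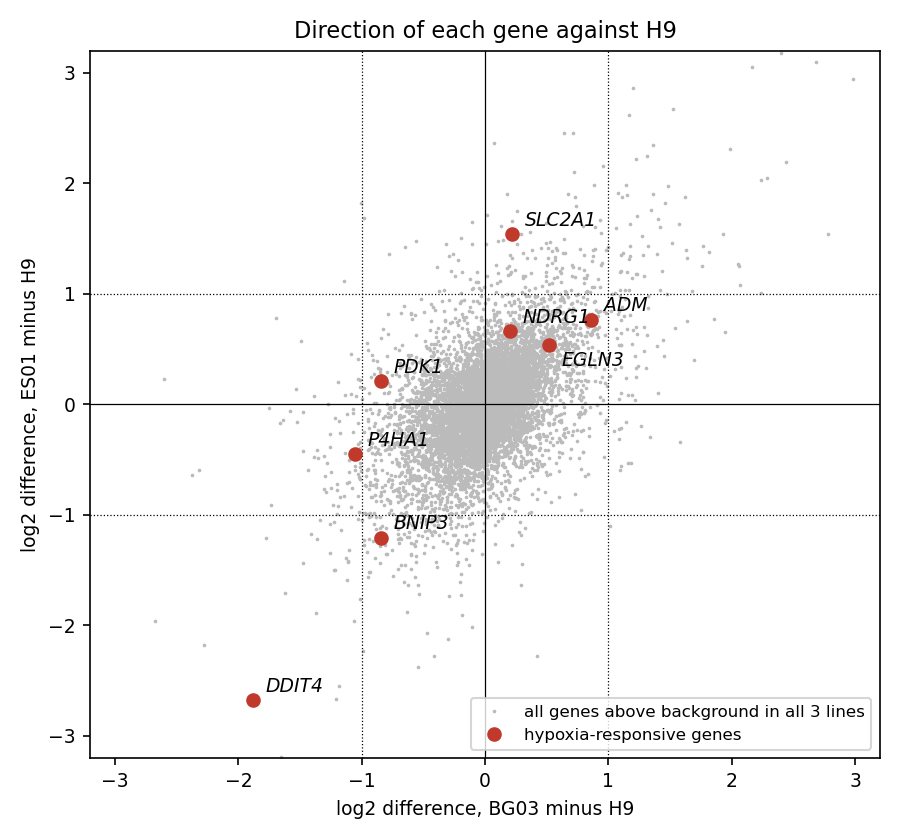
Log2 difference of ES01 minus H9 (vertical) against BG03 minus H9 (horizontal) for 8 hypoxia-responsive genes (large points) and 9695 genes above background in all 3 lines (small points, 11 of them outside the axes at -3.2 and 3.2); dotted lines mark 2-fold. Both axes subtract the same H9 array, which by itself draws points along the diagonal, and the 8 genes lie both above and below 0 on each axis.

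By the order of their measured values, the 8 genes fell into 5 of 6 possible orders. SLC2A1, EGLN3 and NDRG1 had ES01 highest and H9 lowest, an order that 20.0% of the 9695 genes above background in all lines had. The reverse order, with H9 highest, was that of DDIT4 and BNIP3 and of 20.2% of genes. PDK1, ADM and P4HA1 each had an order of their own. For SLC2A1, EGLN3, NDRG1 and ADM, 1 step of the order lies within bead error, as given above. When array medians were made equal, PDK1 took the order of P4HA1 (ES01 minus H9 -0.11) and EGLN3 that of ADM (ES01 minus BG03 -0.32). Of the 28 pairs that the 8 genes form, 4 pairs (14.3%) had the same sign in all 3 differences, beside 17.0% of pairs among all tested genes. The closest 2 profiles were those of ADM and EGLN3, 0.25 apart on the log2 scale as the distance between profiles centred on their mean over lines. The farthest were those of DDIT4 and SLC2A1, 2.98 apart, and 3 points per profile allow no correlation.

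The genes nearest in profile to DDIT4 and SLC2A1 were sought among all genes above background in all 3 lines. By the same distance, the 5 nearest to DDIT4 of 9694 genes were BCL6B, CUZD1, LHPP, ACTL8 and CNTNAP1, between 0.53 and 0.63 away. BNIP3, the nearest member, was 1.07 away. So many more genes than members were searched that nothing is read from this gap. LHPP, a phosphatase, measured 49.8 units in ES01, 137 in BG03 and 317 in H9. BCL6B, a transcriptional repressor, measured 30.4 units in ES01, 78.5 in BG03 and 178 in H9. Both ran up to H9 as DDIT4 did. For SLC2A1 the 5 nearest were ZNF124, ITGA9, EPS8, FBXO15 and ZNF701, between 0.06 and 0.10 away. ITGA9, an integrin subunit, measured 39.95 units in ES01, 16.8 in BG03 and 13.8 in H9, just over background outside ES01. Each of these 10 genes was read by 1 probe.

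Genes of the HIF machinery itself varied about as much as genes at large. Of 15 measured HIF subunits and regulators, 14 were above background in at least 1 line and 12 in all 3. Of the 14, EGLN1 differed at least 2-fold between some pair of lines (7.14%, beside 8.29% of all genes), and the median log2 SD of the 14 was 0.21, beside 0.19 for all genes. EGLN1, the main oxygen-sensing prolyl hydroxylase, was not above background in ES01 (2.47 units) and measured 18.5 units in BG03 and 30.4 in H9, so it was at least 2.29-fold lower in ES01 than in H9. These values are near background, where a fold change is least certain. EGLN2, another of the hydroxylases, measured 135 units in ES01, 173 in BG03 and 131 in H9. VHL differed by at most 1.06-fold, at 441 units in ES01, 456 in BG03 and 465 in H9, though its second, dim probe read 15.8 units in ES01, 29.0 in BG03 and 42.6 in H9. HIF1A, the alpha subunit present in most cells, measured 782 units in ES01, 421 in BG03 and 564 in H9 (log2 SD 0.45). A second HIF1A probe gave 354, 300.3 and 360.1 units in the same order of lines, so the higher value of ES01 over H9 was not seen at both probes. EPAS1, the alpha subunit also called HIF-2 alpha, stayed under the threshold throughout, and HIF3A passed the threshold in BG03 alone (12.97 against 12.6 units). ARNT2 measured 65.5 units in ES01, 40.7 in BG03 and 54.5 in H9, and ARNT is not analysed here. HIF activity is set mainly through protein stability, which these arrays do not read.

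**Figure D3:**
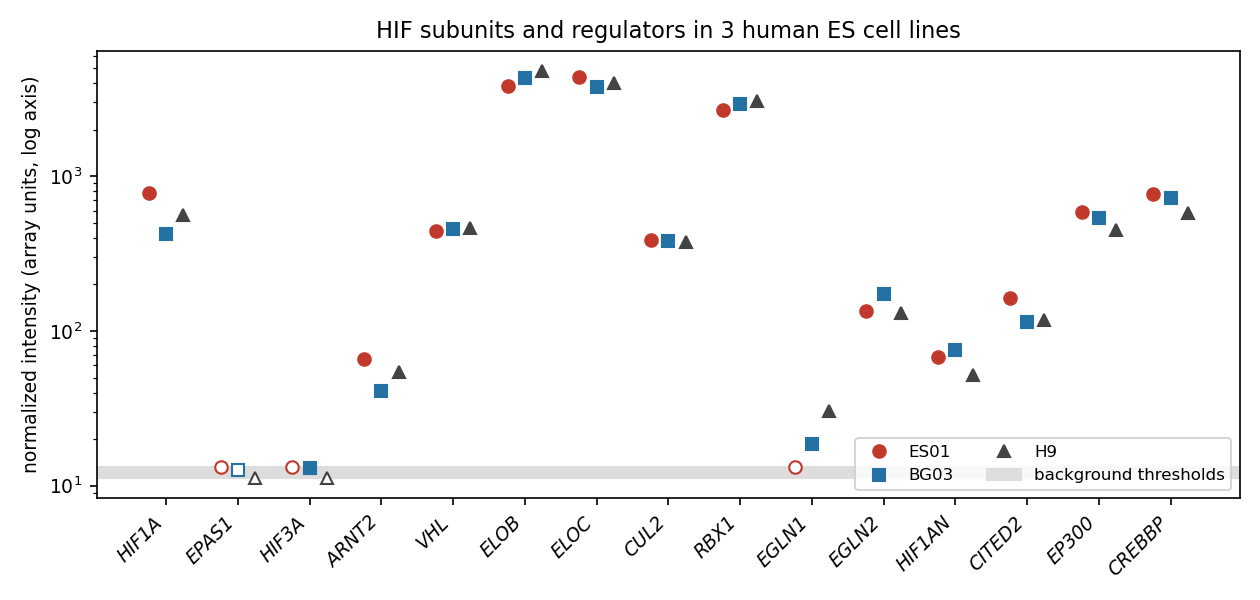
Normalized intensity (log axis, array units) of 15 HIF subunits and regulators in ES01 (circles), BG03 (squares) and H9 (triangles), 1 array each, with the background thresholds as a grey band and open symbols for values not above them. VHL, CUL2 and RBX1 lie nearly level over the 3 lines, and EGLN1 is open in ES01 alone.

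Other HIF targets leaned towards H9. Of 34 measured, 29 were above background in at least 1 line. In ES01 19 of the 29 were lower than in H9, with a median log2 difference of -0.21 beside 0.01 for all genes. In BG03 21 of the 29 were lower than in H9, with a median of -0.20 beside 0.03. Among all genes 48.0% were lower in ES01 and 46.1% lower in BG03. Both medians stayed below 0 under every alternative run. Past 2-fold in some pair were 4 genes (13.8%, beside 8.29% of all genes): ANKRD37, a HIF target of little-known function, at 29.3 units in ES01, 19.8 in BG03 and 67.8 in H9; KDM4C, a histone demethylase that was dim, at 14.5, 19.5 and 31.8 units in the same lines; LOX, the collagen cross-linking oxidase, which was highest in ES01 at 28.0 units, not above background in BG03 and at 22.4 units in H9; and BHLHE40, a repressor of transcription. BHLHE40 measured 96.2 units in ES01, 71.8 in BG03 and 36.5 in H9, with H9 apart at the low end, whereas SLC2A1 had ES01 apart at the high end. BNIP3L, the close relative of BNIP3, measured 174 units in ES01, 165 in BG03 and 247 in H9, and P4HA2, the relative of P4HA1, 49.5, 39.1 and 60.2 units. Both relatives were highest in H9, as BNIP3 and P4HA1 were, but neither reached 2-fold. Against this lean, 10 of the 29 were higher in ES01 than in H9. AK4 was 1 of these, also short of 2-fold, at 2075 units in ES01, 1052 in BG03 and 1220 in H9.

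Glucose metabolism genes were mixed, with ENO2, ALDOC and PFKFB4 highest in H9 and others, such as PKM and LDHB, highest in ES01. Of 28 measured, 25 were above background, all of them in all 3 lines, and 1 differed at least 2-fold (4%, beside 8.29% of all genes). The median log2 difference was -0.11 for ES01 against H9 (15 of 25 lower) and -0.08 for BG03 against H9 (17 of 25 lower), beside 48.0% and 46.1% of all genes lower in these pairs. The glycolytic enzyme isoforms ENO2 and ALDOC lay just short of 2-fold: ENO2 measured 208 units in ES01, 213 in BG03 and 412 in H9, and ALDOC 474, 449.9 and 836 units. PFKFB4, which makes an activator of glycolysis, measured 223, 255 and 406 units. All 3 were highest in H9, like DDIT4 and BNIP3, but 10 of the 25 were higher in ES01 than in H9. Among those 10, PKM measured 1762 units in ES01, 1136 in BG03 and 1378 in H9, and LDHB 9284, 6715 and 7942 units. SLC2A3, the glucose transporter GLUT3, was nearly level at 2262 units in ES01, 2570.0 in BG03 and 2290 in H9, so it did not follow SLC2A1. PDK3, a relative of PDK1, was the 1 gene past 2-fold, with 231 units in ES01, 542 in BG03 and 312 in H9. BG03 was the high line for PDK3 and the low line for PDK1. PDK2 measured 17.5, 14.2 and 11.3 units in these lines, close to background, and PDK4 was not above it in any.

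**Figure D4:**
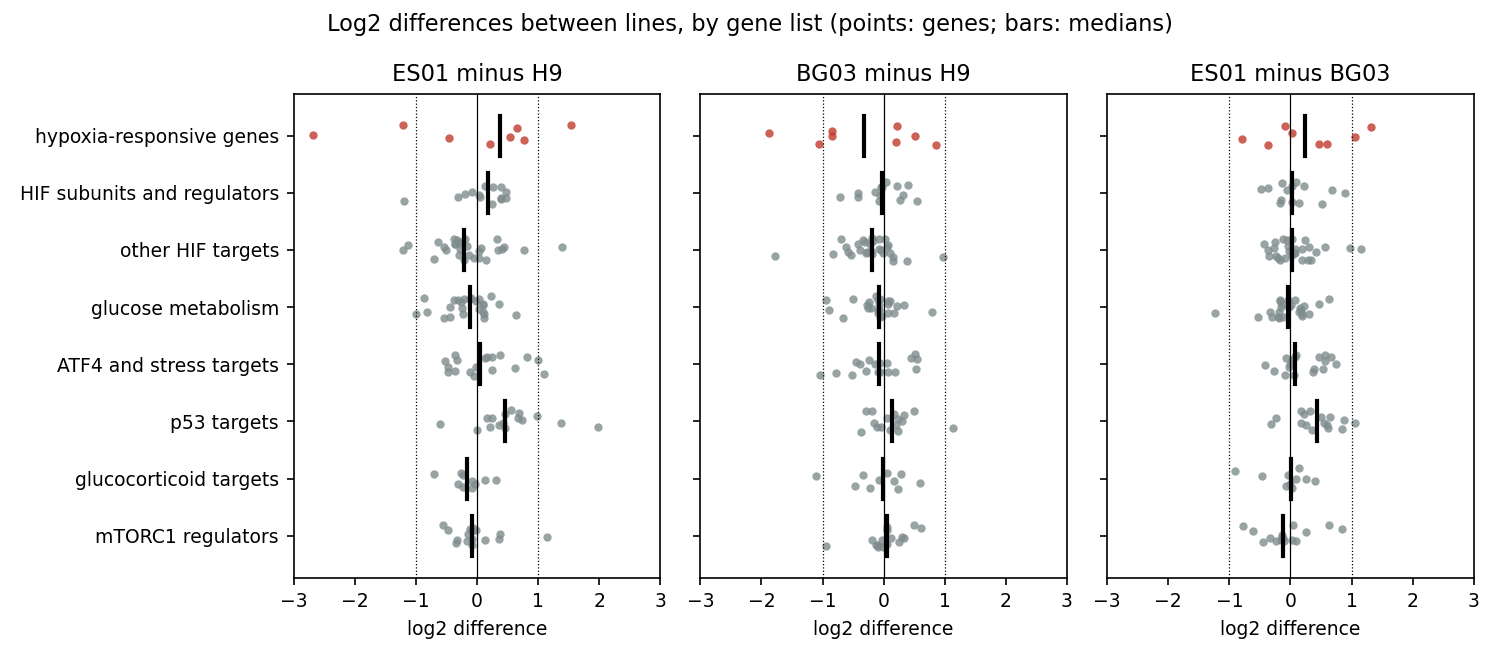
Log2 differences between lines for genes above background in at least 1 line (points), by list, with list medians as black bars and 2-fold as dotted lines; heights within a row are random. The 8 hypoxia-responsive genes (top row) lie on both sides of 0 in each pair, whereas the p53 targets lie mostly above 0 in both ES01 panels.

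Genes that answer to the other signals known to raise DDIT4 were read from lists. Of 18 ATF4 and stress targets above background, 9 were higher and 9 lower in ES01 than in H9, where 51.8% of all genes were higher (median log2 difference 0.05, and -0.24 when array medians were made equal). Past 2-fold were SLC7A5, an amino acid transporter (2091 units in ES01, 1405 in BG03 and 980.2 in H9), and VLDLR, a lipoprotein receptor (120.4, 81.1 and 167 units). CHAC1, a glutathione-degrading ATF4 target, measured 794 units in ES01, 799 in BG03 and 1142 in H9, and TRIB3, which is raised by the same factor, 109, 83.7 and 92.3 units. The part of ATF4 and other stress signals in the differences of DDIT4 was not tested.

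Most p53 targets were higher in ES01 than in H9. Of 17 measured, 16 were above background in some line and MDM2 was above it in none, while FAS, BTG2 and FDXR are not analysed here. Of the 16, 15 were higher in ES01 than in H9 and 1 lower, where 51.8% of all genes were higher. Their median log2 difference was 0.46 beside 0.01 for all genes (0.17 beside -0.27 when array medians were made equal). Between BG03 and H9 they were mixed, 10 higher and 6 lower with a median of 0.13, where 53.7% of all genes were higher. The order with ES01 highest and H9 lowest was that of 9 of the 16, beside 20.0% of genes above background in all lines. CDKN1A, the cell cycle inhibitor p21, measured 393 units in ES01, 219 in BG03 and 99.5 in H9. A second CDKN1A probe was not above background in any line. GADD45A, a growth arrest gene, measured 382 units in ES01, 183 in BG03 and 148 in H9. PMAIP1 was the 1 that was lower in ES01, with 1128 units in ES01, 1407 in BG03 and 1715 in H9. Of 10 glucocorticoid targets above background, 8 were lower in ES01 than in H9 (median -0.15), where 48.0% of all genes were lower. In BG03 against H9, 5 were higher and 5 lower (median -0.01), and KLF9 was the 1 past 2-fold, at 16.7 units in ES01, 12.7 in BG03 and 27.2 in H9. The part of p53 or of glucocorticoids in the differences of DDIT4 was not tested.

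Among 16 mTORC1 regulators above background, 1 differed at least 2-fold, DEPTOR (6.25%, beside 8.29% of all genes). DEPTOR, 1 of several inhibitors in this list, binds mTOR and measured 159 units in ES01, 89.3 in BG03 and 72.2 in H9. That is the reverse of the order of DDIT4. DDIT4L, the paralog of DDIT4, measured 133 units in ES01, 228 in BG03 and 149 in H9, with BG03 highest. The kinase MTOR itself measured 318 units in ES01, 346 in BG03 and 350.3 in H9.

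Markers of cell identity were set beside these results. Of 9 measured pluripotency markers, 8 were above background in every line and SOX2 was above it in none. As for VEGFA, the 1 SOX2 probe was not checked for reading the transcript. Its values (3.9 units in ES01, 5.03 in BG03 and 3.87 in H9) therefore do not show that SOX2 RNA is absent. ZFP42 alone differed at least 2-fold, with 247 units in ES01, 780 in BG03 and 364 in H9. Of 12 fibroblast and stroma markers, 10 were above background in some line. The summed intensity of all 12, with negative values set to 0, was 2968 units in ES01, 2226 in BG03 and 1954 in H9. TAGLN (1153, 868 and 628 units in these lines) and THY1 (824, 851 and 752 units) weighed most in it. The sum is thus no measure of how many such cells were present. Past 2-fold among the 10 were COL1A1, COL1A2, ACTA2, DCN and LUM (50%, beside 8.29% of all genes). The first 3 were highest in ES01. DCN was highest in H9, at 26.4 units in ES01, -0.6 in BG03 and 30.5 in H9. LUM was above background in BG03 alone, at 48.9 units. COL1A2, for example, measured 582 units in ES01, 229 in BG03 and 310.3 in H9, and COL3A1 and POSTN were not above background. All 8 endoderm markers were above background, with a summed intensity of 1347 units in ES01, 1360.4 in BG03 and 1355 in H9. Within that level sum TTR, APOA1 and APOA2 were highest in H9, as DDIT4 was, and AFP was lowest there. Trophoblast markers were above background in some line for 3 of 8 (CDX2, CGA, ELF5, GCM1 and TFAP2A in none; HAND1 differed at least 2-fold), neural markers for 3 of 6 (SOX1, NEUROG1 and NEUROG2 in none; PAX6, DCX and OLIG2 differed), and endothelial and mesoderm markers for 3 of 8 (CDH5, MESP1, TBX6, MYH6 and HBE1 in none; TEK differed). Summed in the same way over all measured genes, the trophoblast list gave 87.0 units in ES01, 92.5 in BG03 and 86.3 in H9. The neural list gave 79.6, 144 and 83.6, and the endothelial and mesoderm list 235, 128 and 120.2. Few genes set the last 2 sums. TEK measured 161.6, 48.15 and 29.4 units in these lines, whereas KDR was highest in H9 (47.9, 44.4 and 60.6). OLIG2 measured -5.43, 52.75 and 38.8 units and DCX 55.4, 76.3 and 34.4, whereas PAX6 was highest in ES01 (24.2, 14.8 and 3.8). The part of other cell types in the differences of DDIT4 and SLC2A1 was not tested.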

How the data were processed

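Per the labels, RNA was extracted with TRIzol and labelled for Illumina whole-genome arrays. The deposited values are a linear intensity for each of 47293 probes; 26.3% to 33.8% of them per array lay below 0, so background had been subtracted. The sources used here name neither the authors' software nor a scaling. The deposited bead files (2089034 to 2102778 beads per array, median 42 per type) served for technical error only, without beads over 3 scaled MADs from the median of their type. The number of arrays limits the precision.

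The platform annotation gave 18468 probes 1 symbol and 28825 none, and 18451 were found by gene ID in RefSeq (GRCh38.p14). Quantile normalization (limma 3.58.1, R 4.3.3) left out 4 bacterial controls. The background threshold was the 95th percentile, per array, over 215 probes for olfactory receptors. Genes with several probes were read from the brightest on average. With 1 array per line no test was made. The members and 13 other lists (193 of 204 genes measured) were chosen with earlier results of these data known. Named were all members, list genes differing at least 2-fold, HIF subunits, prolyl hydroxylases, VHL, and the 5 genes nearest in profile to DDIT4 and SLC2A1; other list genes were picked after their values were seen. The 13 alternatives varied normalization, background, floor, probe rule, filter and the lines included. The steps were tested on simulated data.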

Additional observations from a re-analysis of the deposited data

How the results depend on the processing

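DDIT4 and BNIP3 against H9 in ES01, DDIT4 against H9 in BG03 and SLC2A1 in ES01 against H9 stayed past 2-fold in all 11 alternatives that gave each a value: the log2 differences ran from -2.96 to -2.63, -1.46 to -1.13, -1.91 to -1.83 and 1.22 to 1.55. Of the members called against H9, P4HA1 in BG03 was past 2-fold in 9 of 11 (-1.05 to -0.96). With values as deposited, and with array medians made equal, 1 member differed at least 2-fold between BG03 and H9, against 2. Same-median scaling also left 1 between ES01 and BG03, against 2: SLC2A1 was at 0.99 and PDK1 at 0.73, and DDIT4, at -1.13, was past 2-fold there alone. That scaling moved the median of all genes to -0.27 for ES01 against H9 and -0.34 against BG03, and its factor rests on probes not above background. A floor of 50 units, under which NDRG1 lies in every line, left 2 pairs of members with the same sign in all 3 differences, against 4. Without the filter on dim genes VEGFA entered at the thresholds, which alone set its differences; 7 of 36 pairs then had the same sign and the median for BG03 against H9 was 0.17. Leaving out a line, which renormalizes the other 2 arrays and leaves between 10697 and 10809 genes tested instead of 11004, changed no count of members, and the medians were 0.37 for ES01 against H9, -0.32 for BG03 against H9 and 0.25 for ES01 against BG03. No paired analysis was possible because the lines form 1 group with 1 array each.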
